A study of Bos taurus with 6 samples.

Results

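The predicted miRNAs of 19 to 21 nt were the sequences in a miRNA table of bovine milk extracellular vesicles (EVs) that carried a prediction name, such as novel30_mature, in place of a miRBase name, and whose listed length was 19, 20 or 21 nt. There were 231 of them among 779 listed miRNAs, with 127 of 19 nt, 60 of 20 nt and 44 of 21 nt. The remaining sequences were 209 predicted miRNAs of 18 nt, 63 predicted miRNAs of 22 nt or longer and 276 known bovine miRNAs. The EVs were precipitated with a commercial kit from the milk of 6 Holstein cows in mid lactation, and their small RNA was sequenced, 1 library per cow. The 3 control cows were fed a total mixed ration. The 3 replacement cows received a ration in which alfalfa hay was partly exchanged for whole cotton seed and soybean hull. All 6 cows were kept in climate chambers at the same temperature and humidity, and the labels describe them as separate animals of either diet. The comparison addressed whether the miRNA profile of milk EVs differed between the diets.

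MicroRNAs are cut from hairpin precursors by Drosha and Dicer, and the arm that is retained, called the mature arm, guides Argonaute proteins to messenger RNAs, while the opposite arm, called the star arm, is mostly degraded. Target choice rests largely on the seed near the 5′ end. A predicted miRNA is a sequence whose reads map to a stretch of the genome that can fold into such a hairpin, without an entry for it in the miRNA database, and milk EVs also hold fragments of other small RNAs such as tRNA and rRNA.

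Each cow gave between 12130660 and 13369168 total reads, of which 271061 to 556489 were counted on listed miRNAs. The predicted miRNAs of 19 to 21 nt received 18284, 51726 and 24238 counts in control cows 1 to 3 and 43709, 22326 and 27158 counts in replacement cows 1 to 3. Values below are counts or RPM, which is the count per 1000000 total reads of the cow. A miRNA with 0 counts in a cow could still be present at up to 3 counts, which was 0.224 to 0.247 RPM depending on the cow. Intervals and limits of this kind cover counting error only.

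The libraries were also read for miRNAs of the cells that shed material into milk. Of 6 mammary epithelium markers, only bta-miR-148a was detected in all 6 cows, at a mean of 54.7 RPM. The other 5 belong to the epithelial miR-200 family, of which bta-miR-200a had 92, 14 and 5 counts on the control diet and 51, 0 and 38 on the replacement diet, bta-miR-200b received 2 counts in total, and none had a count in replacement cow 2. The markers of this list together had 54.2, 98.3 and 35.0 RPM on the control diet and 107, 27.9 and 29.2 RPM on the replacement diet. All 3 red blood cell markers were detected in every cow, with a summed level of 497, 677 and 860 RPM on the control diet and 642, 626 and 511 RPM on the replacement diet, most of it bta-miR-486 at a mean of 489 RPM. Of 5 leukocyte markers, 4 were detected in all cows, led by bta-miR-150 at a mean of 123 RPM, and bta-miR-142-3p received 1 count. The leukocyte sum was 75.4, 282 and 105 RPM on the control diet and 167, 89.8 and 121 RPM on the replacement diet. The diets overlapped in all 3 lists.

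The 10 most abundant predicted miRNAs of 19 to 21 nt by mean RPM carried most of the counts and are printed here in that order, from 5′ to 3′ in the DNA letters of the table. Capitals mark the seed, bases 2 to 8.
novel30_mature: cGTTTCCTggccaatgcacca
novel13_mature: aTCCCGGGgccgagggaacct
novel26_mature: gGAAAGGGcccatggcgga
novel32_mature: gGTCCTGTagctcagagga
novel143_mature: cCCTGGGGccgagggagcc
novel19_mature: tGGCCAGActtgggcccgg
novel101_mature: gGGTGGGGcggggcgggac
novel138_mature: aGGCGCCGccgcccccccc
novel33_mature: aATCCTGGttcctggcacaa
novel159_mature: gGGGGCGGgccccgaggggcc

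No seed was shared among these 10. The leading sequence, novel30_mature, ended in CCA, the letters that are added to the 3′ end of mature tRNAs, and novel32_mature held TAGCTCAG, letters that occur in the D arm of many tRNAs. Whether these reads came from tRNA was not tested, and genome positions of the predicted hairpins were not analysed here. novel13_mature and novel143_mature had different seeds but shared the 12-base run GGGGCCGAGGGA.

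Several less abundant members were near copies of each other or of sequences in other classes. They are printed in sets because reads of near copies can be divided among them, and the counter's handling of reads that match several miRNAs is not given in the sources used here. The set around novel138_mature had the seed GGCGCCG in 4 of its sequences, and novel160_mature shared a run of 16 bases with novel138_mature behind another seed.
novel138_mature: aGGCGCCGccgcccccccc
novel5_mature: gGGCGCCGccgcccccccg
novel16_mature>novel172_mature: aGGCGCCGccccccccccc
novel132_mature>novel209_mature: gGGCGCCGccgccccccgc
novel160_mature: aGTCGCCGccgcccccccc

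The set around novel403_mature had the seed GGGGGTC in 3 sequences. All 18 bases of novel141_mature, a predicted miRNA of 18 nt, lay within novel403_mature, whose only further base was at the 5′ end, so that the seeds of both were offset by 1 position.
novel403_mature: aGGGGGTCggggcggggcg
novel25_mature: gGGGGGTCggggcggggtg
novel190_mature>novel199_mature>novel239_mature>novel310_mature: gGGGGGTCggggcgggggg
novel141_mature: gGGGGTCGgggcggggcg

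A further set was shown because it had the same seed as a known bovine miRNA of the table. The 5 most abundant of 9 such members are given, each followed by its known partner.
novel51_mature: cGCGGGGCgcggcgcggcc
bta-miR-744: tGCGGGGCtagggctaacagca
novel222_mature: aAAAGCTGcctgggccgag
bta-miR-320a: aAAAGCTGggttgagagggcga
novel410_mature: tCAGCAGGagcagcaggaac
bta-miR-214: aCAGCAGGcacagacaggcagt
novel468_mature: aGAGGTCTgggggtggggg
bta-miR-154b: aGAGGTCTtccatggtgcattcg
novel95_star: gGTGGGTGagttggggcctc
bta-miR-669: tGTGGGTGtgtgcatgtgcgtg

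Outside the seed these pairs had little in common. Over the positions both sequences had, novel51_mature and bta-miR-744 held the same base at 10 of 19, and novel222_mature and bta-miR-320a at 12 of 19. Of the other members with the seed of a known miRNA, novel393_mature had that of the let-7 family, a conserved family of differentiation regulators, and received 9 counts, all in control cow 1. Its longest run in common with any of the 9 let-7 family sequences listed was 8 bases. The share of members with the seed of a known miRNA was 3.90% (9 of 231), against 2.87% of the predicted miRNAs of 18 nt (6 of 209) and 12.7% of those of 22 nt or longer (8 of 63).

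The members were concentrated in very few sequences. novel30_mature alone received 53.3, 86.4 and 60.2% of the members' counts on the control diet and 70.2, 44.6 and 55.3% on the replacement diet. The 10 leading members together received between 88.1% and 96.6% per cow. By length, sequences of 21 nt held 77.9% of the counts, those of 19 nt 19.2% and those of 20 nt 2.81%. This order rested on novel30_mature, since without it the sequences of 19 nt held 57.4%, those of 21 nt 34.2% and those of 20 nt 8.39%. The median member had 20.0 counts over the 6 cows together, against 34.0 for predicted miRNAs of 18 nt, 10.0 for those of 22 nt or longer and 67.0 for known miRNAs.

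novel30_mature was present at 744, 3549 and 1174 RPM in control cows 1 to 3 and at 2294, 821 and 1189.8 RPM in replacement cows 1 to 3. Control cow 2 was the highest and control cow 1 the lowest, so the spread within the control diet enclosed all replacement cows. The means were 1822.5 ± 1510.8 RPM (SD, n = 3) on the control diet and 1434.8 ± 766 RPM (SD, n = 3) on the replacement diet, with a two-sided exact permutation p of 0.9. The edgeR log2 fold change, replacement over control, was -0.43 ± 0.48 (SE), and it turned to 0.16 with library size alone and to 0.07 without control cow 2.

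novel13_mature had 207, 130 and 220 RPM on the control diet and 317, 284 and 304 RPM on the replacement diet. Every replacement cow was above every control cow, and the replacement cows were close to each other. The exact permutation p was 0.1, the smallest that 3 cows against 3 can give, and the edgeR log2 fold change was 0.36 ± 0.45 (SE; adjusted p = 0.986). It was 0.05 without control cow 2 and 1.01 with library size alone. novel143_mature, which shares the 12-base run, had 43.3, 41.3 and 63.2 RPM on the control diet and 74.5, 77.7 and 59.9 RPM on the replacement diet. Here replacement cow 3 lay below control cow 3. The ratio of novel13_mature to novel143_mature counts varied only from 3.15 to 5.06 over the 6 cows, while both differed in level between cows.

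novel26_mature was at 89.6, 148 and 150 RPM on the control diet and 56.5, 115 and 36.0 RPM on the replacement diet. Its highest replacement cow lay between the control cows, and the edgeR log2 fold change was -1.17 ± 0.50 (SE) with an unadjusted p of 0.0486 and an adjusted p of 0.986, and it was -0.45 with library size alone and -1.80 without replacement cow 2. novel138_mature showed 52.5, 50.9 and 30.0 RPM on the control diet and 28.4, 30.8 and 25.0 RPM on the replacement diet. Control cow 3 was at the level of the replacement cows, and the log2 fold change was -0.89 ± 0.41 (SE; edgeR adjusted p = 0.986), with -0.29 for library size alone and -0.57 without control cow 1. Its near copy novel160_mature had 1.83, 2.15 and 2.01 RPM on the control diet and 1.05, 1.73 and 1.51 RPM on the replacement diet. The count of novel138_mature was 14.9 to 28.6 times that of novel160_mature in every cow. All replacement cows were below all control cows for novel160_mature, whereas the diets of novel138_mature overlapped. The edgeR log2 fold change of novel160_mature was -0.71 ± 0.97 (SE; adjusted p = 0.986) and was -0.05 with library size alone.

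novel32_mature, the sequence with TAGCTCAG, had 25.4, 13.1 and 64.9 RPM on the control diet and 261, 48.0 and 47.7 RPM on the replacement diet. Replacement cow 1 stood alone, and the other 2 replacement cows lay within the range of the control cows. novel19_mature had 23.9, 9.69 and 53.7 RPM on the control diet and 61.5, 77.7 and 45.8 RPM on the replacement diet. Its lowest value was again in control cow 2, and control cow 3 exceeded replacement cow 3. novel159_mature had 170, 98 and 209 counts on the control diet and 218, 234 and 225 counts on the replacement diet. Control cow 2 was again the lowest, and the diets overlapped in RPM.

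The remaining 2 of the leading members were very uneven between cows of the same diet. novel101_mature had 609, 235 and 4 counts in control cows 1 to 3 and 12, 721 and 1469 counts in replacement cows 1 to 3. Each diet thus held high cows and a cow with almost none. novel33_mature had 13, 0 and 7 counts on the control diet and 19, 1084 and 997 counts on the replacement diet. Replacement cow 1 was near the control cows, at 1.42 RPM, whereas replacement cows 2 and 3 were at 89.4 and 79.1 RPM.

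**Figure D1:**
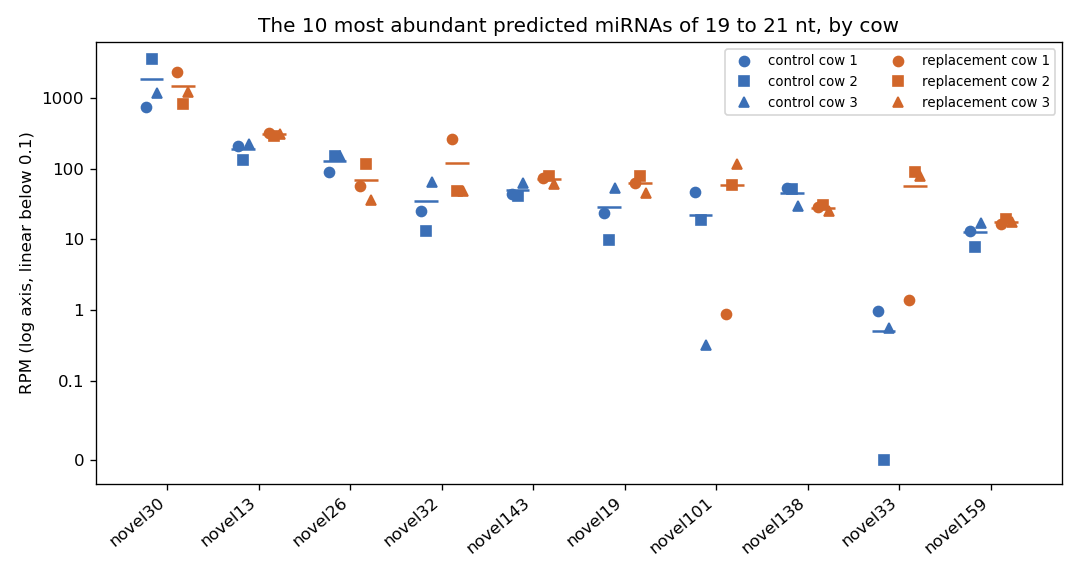
RPM of the 10 most abundant predicted miRNAs of 19 to 21 nt in each of the 6 cows, on a log axis that is linear below 0.1; points are cows (blue control, orange replacement), lines are diet means, and the ending _mature is left out of the names. The cows spread over more than 1 step of the axis for novel32, novel101 and novel33, while the replacement cows of novel13 lie together at 284 to 317 RPM, above the control cows.

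The members' summed share of all miRNA counts was 5.57, 9.30 and 6.25% on the control diet and 10.4, 8.16 and 10.0% on the replacement diet, with 95% Wilson intervals of at most 0.112 percentage points to either side. The diets overlapped, since control cow 2 lay above replacement cow 2, with means of 7.04 ± 1.99% and 9.52 ± 1.19% (SD, n = 3 each). As summed RPM the order of the means was the opposite, at 2485.6 ± 1434.0 on the control diet and 2421.1 ± 751 on the replacement diet. With all cows, the total that served as the denominator therefore set the direction of this difference. The order in RPM also rested on control cow 2, at 4110 RPM. Control cows 1 and 3, at 1396 and 1950 RPM, were below the replacement mean. Without novel30_mature, a calculation chosen after its values were seen, the sums were 652, 561 and 776 RPM on the control diet and 976, 1019.6 and 964 RPM on the replacement diet, which did not overlap, and the shares were 2.68, 1.38 and 2.59% and 3.34, 4.69 and 4.75%. A higher level in these libraries could mean more EVs that carry a sequence or more of it per EV, and these cannot be told apart. For scale, the predicted miRNAs of 18 nt held 47.6 to 77.9% of the counts per cow and the known miRNAs 15.8 to 42.0%.

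In base make-up the members differed from the known miRNAs of the same libraries. Their median GC content was 68.4%, against 66.7% for predicted miRNAs of 18 nt, 66.7% for those of 22 nt or longer and 45.8% for known miRNAs. A GC content of 80% or more was found in 67 of 231 members (29.0%) and in 4 of 276 known miRNAs (1.45%). It was found in 52 predicted miRNAs of 18 nt (24.9%) and in 5 of those of 22 nt or longer (7.94%). Most of the excess over known miRNAs was G, which made up 47.2% of the bases of an average member and 25.4% of an average known miRNA. T made up 12.5% and 28.8%, and C differed little, at 23.7% and 22.5%. In the other predicted miRNAs G was also frequent, at 45.5% for 18 nt and 42.9% for 22 nt or longer. The run GGGG, searched on the listed strand only, was present in 97 members (42.0%), in 84 predicted miRNAs of 18 nt (40.2%), in 27 of those of 22 nt or longer (42.9%) and in 15 known miRNAs (5.43%).

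The 5′ base differed in the same way. A T, which stands for the U that Argonaute proteins favour at this end, opened 18 members (7.79%) and 134 known miRNAs (48.6%). G opened 103 members (44.6%) and 23 known miRNAs (8.33%), and A opened 83 (35.9%) and 82 (29.7%). In this respect the members were like the predicted miRNAs of 18 nt, of which 9.57% began with T and 45.0% with G. Weighted by counts, the GC content of the members was 66.2, 59.3 and 63.4% on the control diet and 61.1, 65.4 and 65.1% on the replacement diet, and it was lowest in control cow 2, where novel30_mature, itself with 57.1% GC, held the largest part of the counts. The same value for known miRNAs lay between 46.9% and 47.9% in all 6 cows.

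**Figure D2:**
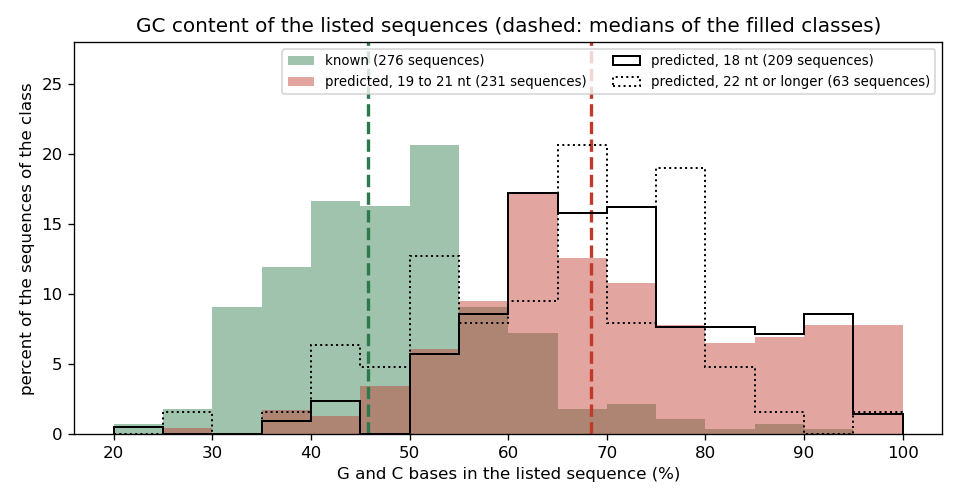
Percent of the listed sequences of each class (vertical axis) by their GC content in percent (horizontal axis, steps of 5), with known miRNAs in green, predicted miRNAs of 19 to 21 nt in red and the other predicted miRNAs as outlines. The dashed medians stand at 45.8% for known miRNAs and 68.4% for the predicted miRNAs of 19 to 21 nt.

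Letters that recur in tRNAs were found in few members. Of these, novel30_mature and novel32_mature were abundant, and the others had 151 counts or fewer over all cows. CCA was the 3′ end of 7 members (3.03%), of 7 predicted miRNAs of 18 nt (3.35%), of 0 of those of 22 nt or longer and of 2 known miRNAs (0.725%). These 7 members held 66.6% of all member counts, nearly all of it novel30_mature, since the next, novel168_mature, had 58 counts. novel168_mature was a near copy of novel30_mature, with the runs GTTTCC and GGCCAATGC in common. Single differing bases kept their shared runs under 14 bases. The A box, an internal promoter element within tRNA genes, was matched on either strand by 7 members (3.03%), by 20 predicted miRNAs of 18 nt (9.57%), by 1 of those of 22 nt or longer (1.59%) and by 5 known miRNAs (1.81%). The members with it held 1.85, 0.383 and 3.37% of the member counts on the control diet and 8.05, 3.22 and 2.47% on the replacement diet, most of it novel32_mature. TAGCTCAG, which lies within matches of the A box, was held by novel32_mature, novel377_mature and novel39_mature. A match of letters describes the sequence and does not give its source.

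Long runs were shared by 36 of the 231 members (15.6%), counted as at least 14 bases in common on the listed strand with another listed sequence. Of these, 29 shared such a run with another member, 27 with a predicted miRNA of 18 nt, 11 with a predicted miRNA of 22 nt or longer and 1 with a known miRNA. The last was novel223_mature, which held 16 bases of bta-miR-151-5p and received 1, 14 and 2 counts on the control diet and 5, 4 and 0 counts on the replacement diet, against 2197 to 11206 counts of bta-miR-151-5p. The members had 192 different seeds. Of these, 23 were shared by 2 or more members, 62 members in all, and the most frequent was GTGGGCG, in 6 members with 557 counts together.

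Against the reverse complement of another listed sequence, 5 members shared at least 14 bases, and for 2 of these the other sequence was a known miRNA. Such a match, called mirroring below, compares letters only. It does not show which strand or hairpin arm a sequence came from, since genome positions were not analysed. All are named here after their values were seen, and the pairs are printed because each mirrors another listed sequence.
novel269_mature>novel296_mature: cGGGGCAGctcagtacaggac
bta-miR-486: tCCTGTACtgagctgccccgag
novel480_mature: aGAAGAAGccagggccctggg
bta-miR-12039: cCAGGGCCctggcttcttctct
novel502_mature: gCAGGAATactggagtgggt
novel2_mature>novel3_mature>novel38_mature: cCCACTCCagtattcttgcc

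A run of 20 of the 21 bases of novel269_mature>novel296_mature was the reverse complement of bta-miR-486, a miRNA abundant in red blood cells. It received 3, 14 and 27 counts on the control diet and 7, 5 and 2 counts on the replacement diet, while bta-miR-486 received 5142 to 7256 counts per cow. Its counts thus varied far more between cows than those of the sequence it mirrored. novel480_mature was the reverse complement of bta-miR-12039 over 20 bases and had 1 count, in control cow 3, the only cow in which bta-miR-12039 was detected, with 36 counts. novel502_mature and novel2_mature>novel3_mature>novel38_mature mirrored each other over 15 bases, and the fifth, novel169_mature, mirrored novel59_mature, a predicted miRNA of 18 nt, over 14 bases.

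The table named hairpins as well as arms. The members belonged to 243 predicted hairpins, some of them listed together because their mature sequence was the same, as in 15 of the members. Of these hairpins 14 had both arms in the table, so that 19 members (8.23%) had their opposite arm listed, and 10 members were star arms. In 7 of the 14 hairpins the star arm had the higher count. As examples chosen after their values were seen, novel70_mature had 429 counts and novel70_star 42, whereas novel93_mature had 48 and novel93_star 46. The star arm was the higher in novel290, with 17 counts on the mature arm and 91 on the star arm. Some hairpins with a higher star arm had very few counts, such as novel129 with 3 and 6.

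Detection differed strongly among the members. A count in all 6 cows was found for 41 of 231 (17.7%), in 5 cows for 15, in 4 for 12, in 3 for 15, in 2 for 29 and in 1 cow for 119 (51.5%). Of the known miRNAs 37.3% were detected in all cows, of the predicted miRNAs of 18 nt 21.1% and of those of 22 nt or longer 6.35%. The 41 members found in all cows held 95.6% of the member counts and the 119 found in 1 cow held 0.879%. Members found in all cows had a higher GC content, with a median of 89.5%, than those found in 1 cow, with 66.7%. At 10 or more counts in every cow 18 members were left, which held 92.1% of the member counts and had a median GC content of 81.6%.

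**Figure D3:**
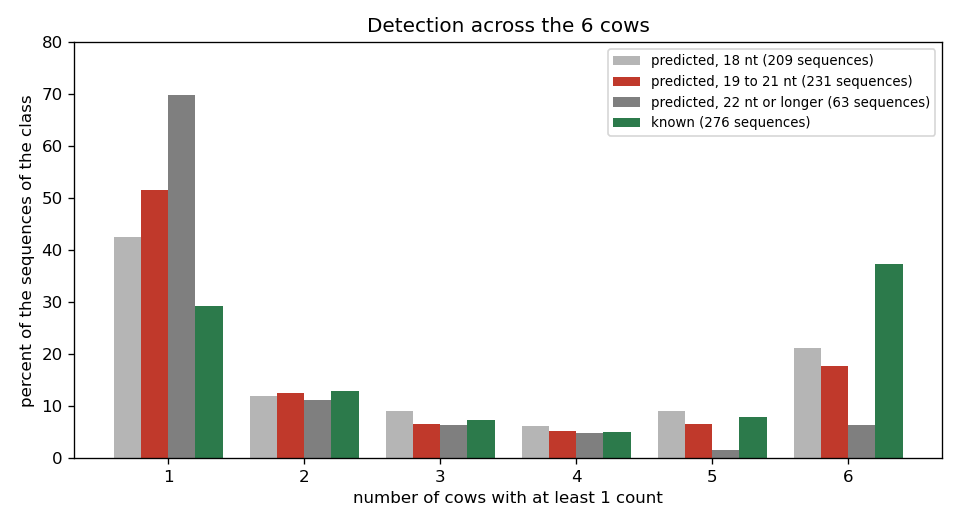
Percent of the sequences of each class (vertical axis) by the number of cows with at least 1 count (horizontal axis); bars are the 3 classes of predicted miRNAs and the known miRNAs. The predicted miRNAs of 19 to 21 nt have 51.5% in 1 cow and 17.7% in all 6, between the values of the other predicted classes.

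Each cow had between 82 and 116 members with a count, with 109, 97 and 116 on the control diet and 98, 89 and 82 on the replacement diet. The members found in 1 cow numbered 31, 18 and 32 in control cows 1 to 3 and 21, 9 and 8 in replacement cows 1 to 3. The miRNA counts behind these numbers were 328527, 556489 and 387723 in control cows 1 to 3 and 421197, 273652 and 271061 in replacement cows 1 to 3. Replacement cows 2 and 3 had the fewest of both, whereas control cow 2 had the most miRNA counts and the next fewest members of its own. The part of depth in this was not tested. The median count of a member found in 1 cow was 9, and 58 of the 119 had 10 or more. The 3 with the highest counts were novel509_mature with 72 in replacement cow 2, novel295_mature with 62 in replacement cow 1 and novel434_mature with 57 in replacement cow 2. A sequence absent from 5 cows was therefore not always near the counting limit in the remaining cow.

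Across cows the variation of members was large even where detection was complete. The coefficient of variation of RPM over the 6 cows had a median of 64.1% for the 41 members found in all cows, from 22.8% to 123%, against a median of 59.8% for 103 known miRNAs found in all cows. The 6 pairs of cows on the same diet were compared only to see whether any library could be a repeat of another. Their chi-square over the members was 27.4 to 146 per degree of freedom, against counting error alone, and no pair was merged.

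Of the 231 members, 42 passed the default edgeR filter on low counts, and these held 97.2% of the member counts. The other 189 were not tested with all cows and this filter. In the edgeR quasi-likelihood fit over all 227 miRNAs that passed, 0 had an adjusted p under 0.05 (0% of those tested), and 0 of the 42 members did. An unadjusted p under 0.05 was found for 8 of 227 and for 2 of 42, which were novel33_mature and novel26_mature. With limma on log2(RPM + 1) the counts were 0 and 0, and 13 and 2 unadjusted. DESeq2 called 1 of 226 (0.442%), with 9 of 227 at an unadjusted p under 0.05, and the called miRNA was novel33_mature.

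The median log2 fold change, replacement over control, was 0.16 for the 42 members and 0.03 for all 227 miRNAs tested, and 26 of 42 members (61.9%) and 117 of 227 miRNAs (51.5%) were above 0. None of these differences between the diets passed the edgeR test. With total reads as the library size the medians were 0.51 and 0.21, and with library size alone 0.82 and 0.62. The scaling thus moved members and all miRNAs together. Without the filter on low counts the medians were -0.58 for the 231 members and -0.26 for all 779 miRNAs, with 105 (45.5%) and 355 (45.6%) above 0, so the direction depended on the filter. Leaving out 1 cow moved the median of the members tested from -0.02 without replacement cow 3 to 0.59 without control cow 1. In RPM, 6 of 42 members (14.3%) were higher in every replacement cow than in any control cow, against 9.25% of all miRNAs tested, and 1 of 42 (2.38%) was lower, against 4.85%. The exact permutation p of each was 0.1, two-sided.

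**Figure D4:**
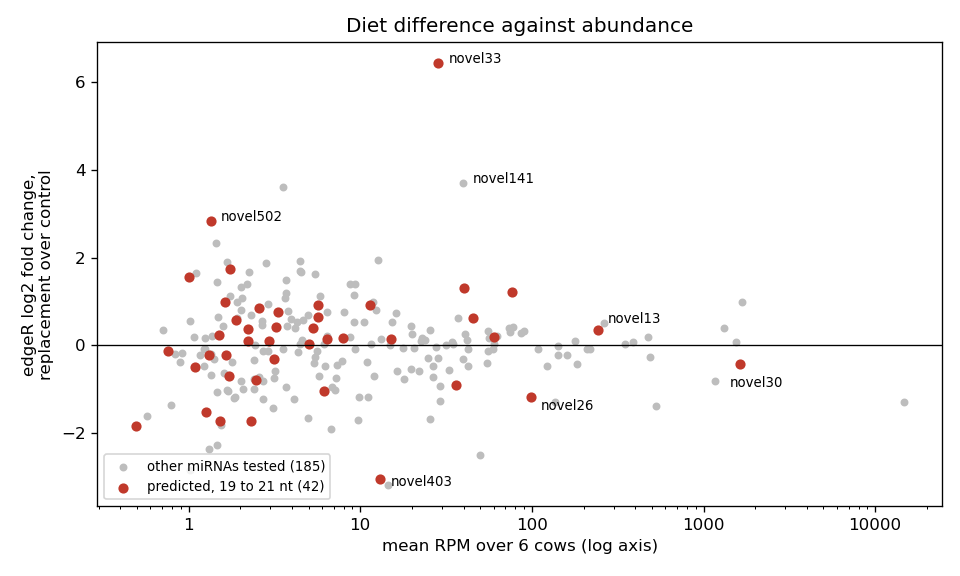
Log2 fold change of replacement over control in edgeR (vertical axis) against mean RPM over the 6 cows (horizontal log axis) for the 42 predicted miRNAs of 19 to 21 nt tested (red) and the 185 other miRNAs tested (grey). Most red points lie between -2 and 2, with novel33 at 6.42, novel502 at 2.84 and novel403 at -3.05 outside this range.

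Among the 42 members tested, the 6 that were higher in every replacement cow were novel13_mature, novel33_mature, novel502_mature, novel193_mature, novel107_mature>novel188_mature and novel80_mature. The lower was novel160_mature. Apart from novel13_mature and novel33_mature these were rare. Of the 189 members under the filter, novel7_mature, novel89_mature, novel112_mature>novel115_mature and novel140_mature were also higher in every replacement cow. There, novel110_mature, novel122_mature and novel163_mature were lower. Some rested on few counts, such as novel140_mature with 1, 0 and 2 on the control diet and 7, 4 and 6 on the replacement diet. The share of all miRNAs under the filter without overlap was not counted, so no excess is read from these members. novel502_mature had 10, 0 and 0 counts on the control diet and 29, 23 and 41 counts on the replacement diet, with an edgeR log2 fold change of 2.84 ± 1.77 (SE; adjusted p = 0.986). Without control cow 1, the only control cow with counts, it was 7.96, a fitted value against cows at 0 and no measure of size, and with cow number as a block it was 4.83. novel2_mature>novel3_mature>novel38_mature, the sequence it mirrors over 15 bases, had 67, 4 and 46 counts on the control diet and 121, 140 and 52 on the replacement diet. Both had their lowest or joint lowest count in control cow 2, and the diets of the latter overlapped in RPM.

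novel193_mature, with 18, 5 and 13 counts on the control diet and 22, 19 and 48 on the replacement diet, and novel107_mature>novel188_mature, with 21, 16 and 25 and 39, 33 and 63, had the same seed, GTGGGTC.
novel193_mature: aGTGGGTCggggcggggag
novel107_mature>novel188_mature: gGTGGGTCtgggcggggct
novel80_mature: gGCGGGCGggcggggccgga
The other 2 members with the seed GTGGGTC, novel49_mature and novel78_mature>novel86_mature, overlapped between the diets, the former with 5, 43 and 7 counts on the control diet and 20, 7 and 18 on the replacement diet and an edgeR log2 fold change of -0.23 ± 1.16 (SE; adjusted p = 0.986) that turned to 0.82 without control cow 2 and to 0.32 with library size alone, the latter with 17 counts in all. novel80_mature, likewise rich in G, had 21, 9 and 20 counts on the control diet and 26, 26 and 41 counts on the replacement diet. The edgeR log2 fold changes of novel193_mature, novel107_mature>novel188_mature and novel80_mature were 0.99, 0.84 and 0.57, each smaller than its standard error. The fold changes were 0.24, 0.32 and 0.14 without replacement cow 3, 0.55, 0.55 and 0.19 without control cow 2, and between 1.22 and 1.62 with library size alone.

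novel51_mature, the most abundant member with the seed of a known miRNA, had 126, 19 and 102 counts on the control diet and 258, 116 and 260 on the replacement diet. The known miRNA with that seed, bta-miR-744, had 2, 48 and 17 counts and 180, 41 and 1 counts. The pair did not follow each other: replacement cow 3 was the highest for the former and the lowest for the latter. The edgeR log2 fold change of novel51_mature was 0.92 ± 0.87 (SE; adjusted p = 0.986), and it was 0.43 without control cow 2, 0.54 without replacement cow 3 and 1.55 with library size alone. novel222_mature was found in control cows 1 and 2 only, with 10 and 39 counts, while bta-miR-320a had 207 to 433 counts in every cow. novel410_mature had 33 counts in replacement cow 2 and 1 in replacement cow 3, novel468_mature 33 in control cow 2, and novel95_star 16 in control cow 3.

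The largest edgeR log2 fold change among the members tested was that of novel33_mature, 6.42 ± 1.80 (SE; unadjusted p = 0.00745, adjusted p = 0.593). DESeq2 gave 6.52 ± 1.30 (SE; adjusted p = 1.23e-04), and over all alternatives the adjusted p ranged from 3.99e-11 to 0.987. The value rests on replacement cows 2 and 3, and without either of them it was 6.00 and 5.96 with adjusted p of 0.593 and 0.862. It was 5.84 without control cow 2, 7.42 without control cow 1, 7.09 with library size alone and 4.15 with limma on log2(RPM + 1), a scale that understates changes of low values. Members with counts almost only in these 2 cows formed a small set, named after their values were seen and printed for comparison with novel33_mature.
novel33_mature: aATCCTGGttcctggcacaa
novel165_mature: gGGCGGGGgccccgggaag
novel238_mature: cCCGGGACgcggcggcgggc
novel377_mature: tCCGGGGTagctcagtggt
novel376_mature: tGAGCAGGtggtgaggggc
novel266_mature: gGTGTGGAaggggtggctg

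novel165_mature had 0, 0 and 3 counts on the control diet and 0, 268 and 405 counts on the replacement diet. novel238_mature had 124 and 119 counts in replacement cows 2 and 3 and 0 in the others, and novel377_mature 81 and 70. novel376_mature had 47 and 38 counts and novel266_mature 21 and 29 in the same cows, with 0 elsewhere. No seed was shared among these 6 sequences, and their GC content differed, with 63.2% in novel377_mature and 89.5% in novel165_mature. Among 29 members found in exactly 2 cows, 5 were found in replacement cows 2 and 3, the fifth being novel410_mature. Another 4 were found in control cows 1 and 2, 4 in control cows 2 and 3 and 4 in control cow 2 with replacement cow 1. In the other classes it held 4 predicted miRNAs of 18 nt, 0 of 22 nt or longer and 1 known miRNA. Replacement cows 2 and 3 had the fewest miRNA counts, and the part of depth in the result was not tested. No member was found in all 3 replacement cows and in no control cow, and 2 were found in all 3 control cows and in no replacement cow, namely novel110_mature with 10, 38 and 4 counts and novel122_mature with 6, 36 and 1 counts. These shares of 0% and 0.866% stood beside 0.257% (2) and 0.642% (5) of all 779 miRNAs.

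Without the filter on low counts, edgeR called 15 of 779 miRNAs (1.93%) and 5 of the 231 members (2.16%), a share near that of all miRNAs. The members were novel33_mature, novel165_mature, novel238_mature and novel377_mature, higher on the replacement diet, and novel403_mature, lower. For the first 4 of these, replacement cow 1 was at the level of the control cows, so the called difference did not extend over the whole diet.

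novel403_mature had 422, 8 and 436 counts on the control diet and 27, 22 and 87 counts on the replacement diet. Control cow 2 was below every replacement cow, whereas control cows 1 and 3 were well above them. novel141_mature, the sequence of 18 nt contained in it, had 0, 261 and 1 counts on the control diet and 850, 911 and 990 counts on the replacement diet. The cows with many counts of the longer sequence, control cows 1 and 3, had almost none of the shorter, and the other 4 cows had 11.4 or more times as many of the shorter as of the longer. The edgeR log2 fold changes were of opposite sign, -3.05 ± 1.37 for novel403_mature and 3.70 ± 1.72 for novel141_mature (SE; adjusted p = 0.986 for both). The call depended on the setting. In edgeR without control cow 2, the only control cow with more than 1 count of it, novel141_mature passed with an adjusted p of 0.0145, at a fitted 10.15 that is no measure of size because the remaining control cows had 0 and 1 counts. Without the filter on low counts edgeR gave 3.62 with an adjusted p of 6.04e-05 for novel141_mature and -2.99 with 0.0205 for novel403_mature, and over all alternatives these p ranged up to 0.992 for both. With cow number as a block the edgeR values were 7.18 and -2.19, with adjusted p of 0.123 and 0.982. The value of novel403_mature was -4.19 without replacement cow 3 and -2.38 with library size alone. Added together the counts were 422, 269 and 437 on the control diet and 877, 933 and 1077 on the replacement diet, which was 32.2, 21.4 and 35.2 RPM and 65.6, 76.9 and 85.4 RPM. The sum, chosen after the values were seen, was higher in every replacement cow than in any control cow. So was novel141_mature alone, which made up most of the sum on the replacement diet. Of all miRNAs tested, 9.25% were higher in this way. Other near copies of novel403_mature, such as novel133_mature, novel216_mature and novel68_mature, were not in the sum. How reads were assigned to nested sequences is not given in the sources used here. The counts of novel403_mature and novel141_mature therefore cannot be taken as independent.

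**Figure D5:**
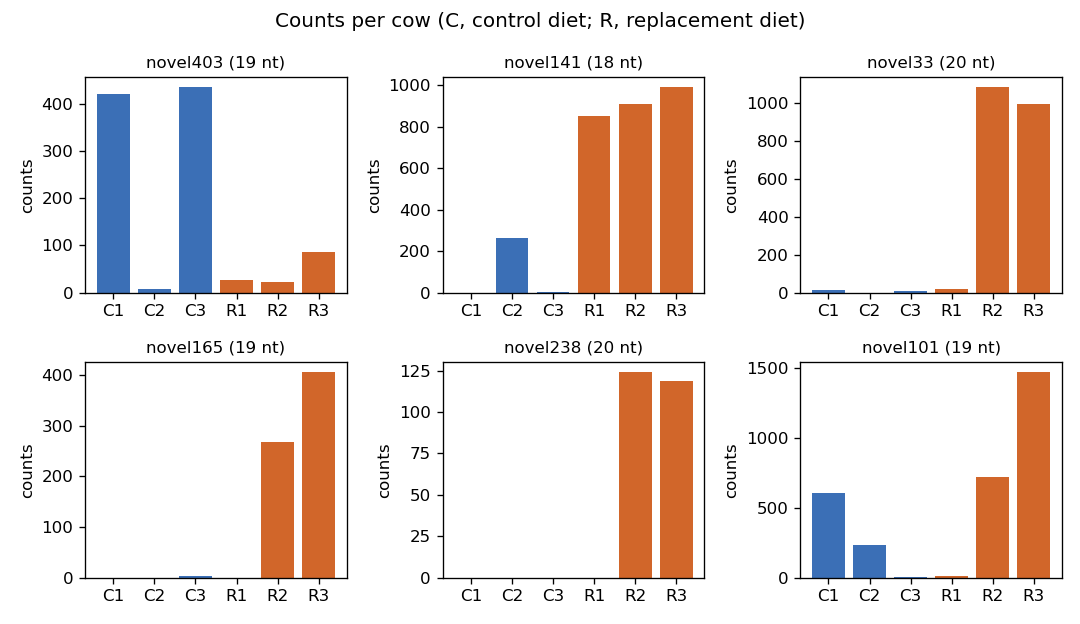
Counts (vertical axis, scaled per panel from 0) of 6 predicted miRNAs in control cows C1 to C3 (blue) and replacement cows R1 to R3 (orange). novel403 is high in C1 and C3 with 422 and 436 counts where novel141 has 0 and 1, and novel33, novel165 and novel238 are high only in R2 and R3.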

How the data were processed

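Small RNA of milk EVs was sequenced from 6 cows, 3 per diet, and diet and cow number were taken from the sample labels. The members and the lists were chosen with earlier results of these data known. By the paper's methods and the submitters' processing notes, the authors trimmed reads with cutadapt 1.14, aligned them to the cow genome (ARS-UCD1.2, with Bowtie named), removed other RNA classes with Rfam and BLAST, named known miRNAs from miRBase and predicted the rest with miRDeep2. Each mature sequence was listed with its length, and the counts deposited with it were whole numbers without scaling. RPM were deposited as well, under the heading TPM, and the ratio of count to RPM gave 1 total per cow without a length term. A deposited table of the authors' own diet comparison, with fold changes and p-values, was not used.

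Diets were compared with edgeR 4.0.16 in R 4.3.3 (TMM, default filter, quasi-likelihood test) on all listed miRNAs, with Benjamini-Hochberg adjustment over all that passed and a threshold of 0.05. DESeq2 1.42.0 and limma 3.58.1 were alternatives. RPM of named members was also compared by a two-sided exact permutation test over cows. The numbers of the cows were not treated as pairs. Shares of counts have 95% Wilson intervals. Other steps used Python 3.11.15, numpy 2.4.6, pandas 2.3.3 and scipy 1.17.1.

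Named were the 10 members with the highest mean RPM, every member with an adjusted p under 0.05 in edgeR, up to 5 higher and 5 lower among tested members whose RPM did not overlap between diets, the 5 most abundant members with bases 2 to 8 of a known miRNA, the 3 with the highest count among those found in 1 cow, and any sequence that contained or was contained in a leading member, of which there was none. All further sequences named were picked with their values in view. No sequence was listed under more than 1 entry. Marker lists had 6 mammary epithelium, 3 red blood cell and 5 leukocyte miRNAs. Genome positions of the predicted hairpins were not analysed here.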

Additional observations from a re-analysis of the deposited data

How the results depend on the processing

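For diet calls, 0 were made over all miRNAs and among the predicted miRNAs of 19 to 21 nt with library size alone, with total reads as the library size, with limma on log2(RPM + 1) and with a filter of 10 counts in 2 cows, the last chosen after seeing the data. DESeq2 gave 1 and 1, and no filter on low counts gave 15 and 5, and the cause was not tested. Leaving out each cow in turn gave 0 to 1 calls over all miRNAs, with 1 without control cow 2 and 1 without control cow 3, and 0 among the members each time. A fit with cow number as a replicate block gave 0 and 0. Same-numbered cows had correlations of -0.105, -0.0813 and 0.0901 over 302 miRNAs, and not every cow correlated best with its own number. These were correlations of deviations from the diet means. With 3 cows per diet they cannot decide whether the numbers paired the cows. Against TMM, library size alone moved the median log2 fold change of all miRNAs tested from 0.03 to 0.62, and total reads moved it to 0.21.

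Of 285 alternative log2 fold changes of 22 named members, 270 kept their sign and their side of the threshold, 3 passed the threshold in the same direction and 12 changed sign or reached 0. For novel30_mature the value was 0.16 with library size alone, and it ran from -0.75 to 0.07 when each cow was left out. For novel143_mature these values ran from -0.04 to 0.57, and for novel159_mature from -0.17 to 0.55, with the change of sign without control cow 2 in all 3. For novel49_mature they ran from -0.68 to 0.82, with a change of sign without control cow 2 (0.82) and without replacement cow 2 (0.07), and the value was 0.32 with library size alone, 0.00 with limma and 0.10 with the replicate block. novel168_mature, at -0.12 in edgeR, had 0.51 with library size alone, 0.02 with DESeq2 and 0.03 with limma. As a share of predicted miRNA counts, the members' mean was 9.20% in the control cows and 14.7% in the replacement cows. Both exceeded the shares of all miRNA counts because the total of predicted miRNA counts is smaller. The diets overlapped, since control cow 2 lay above replacement cow 2. As a share of all miRNA counts without novel30_mature, chosen after seeing the data, the members' mean was 2.21% and 4.26%. Members found in all cows numbered 35 at 3 or more counts and 18 at 10 or more, which are stricter limits, and 42 to 46 without each cow in turn. Keeping each sequence once was not run, as no sequence was repeated. With all cows and the default filter, the 189 of 231 members under it were not tested. The parts of depth and of the number of cows in the lack of calls were not tested.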
